A study of Saccharomyces cerevisiae with 2 samples.

Results

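Ribosome footprints were counted on 10 genes that carry the mating pheromone signal of budding yeast, Saccharomyces cerevisiae, from the cell surface to the nucleus. The genes were chosen by name for their place in the pathway, by a rule that uses no measured value, although earlier results of these data were known. All 10 were found among the 6666 coding sequences (CDSs) listed for each library. The samples were 2 replicate libraries of 1 group, the haploid laboratory strain BY4742, which is of mating type alpha and carries deletions in HIS3, LEU2, LYS2 and URA3. Cultures in synthetic medium were in mid-exponential growth, and cycloheximide, which stalls elongating ribosomes, was used at 50 µg/mL. The labels name no pheromone, no mating partner and no second strain, so the values describe growing cells and no comparison between conditions exists. Nothing states that the replicates came from separate cultures, so the spread between them may be technical.

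In this pathway a peptide pheromone from a cell of the opposite mating type binds a receptor in the membrane, and the receptor acts on a G protein made of GPA1 (alpha subunit), STE4 (beta) and STE18 (gamma). The free beta-gamma dimer recruits the scaffold STE5, on which the kinase STE11 activates STE7 and STE7 activates the MAP kinase FUS3. A related MAP kinase, KSS1, is activated by the same kinases and is better known for filamentous growth. The MAP kinases release the transcription factor STE12 from its inhibitors and phosphorylate FAR1, which arrests the cell cycle and orients growth towards the partner. Footprint counts reflect both how much mRNA a cell holds and how many ribosomes each mRNA carries, and these parts cannot be told apart here.

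Replicate 1 held 23437283 CDS reads and replicate 2 held 2733591, so 1 read was worth 0.0427 and 0.366 CPM (reads per 1000000 CDS reads). Most CDSs were lower in replicate 2 per CDS read, with a median fold of 0.638 over the 5131 CDSs tested, those whose reads averaged 10 or more. Intergenic open reading frames (IGORFs) went the other way, with 4057 reads in replicate 1 and 15116 in the shallower replicate 2 as the tables are labelled. The IGORF tables may be exchanged between the libraries relative to the CDS tables, which these data do not settle, so each IGORF count below belongs to a library only by its label. The mating type was checked on marker genes. The alpha pheromone genes MF(ALPHA)1 and MF(ALPHA)2 had 2372 ± 439 and 5364 ± 650 CPM per kilobase of coding sequence (SD, n = 2). The other alpha-specific genes checked were far lower. SAG1 had 22.9 and 17.4 in replicates 1 and 2, and STE3 had 7.46 and 4.40, below the median CDS. Of the 7 genes specific to the opposite mating type, MFA1, MFA2, STE2, STE6, BAR1, AGA2 and ASG7, none exceeded 1.92 in replicate 1 or 0.282 in replicate 2. The 6 genes of the mating-type loci, MATALPHA1, MATALPHA2, HMLALPHA1, HMLALPHA2, HMRA1 and HMRA2, were listed at 0 in both libraries. For 5 of these, HMRA1 excepted, all stretches of 28 bases, a typical footprint length, occur more than once in the reference genome, so a 0 there carries no information on mating type. Such repeats were not searched for in MF(ALPHA)1 and MF(ALPHA)2, so their levels are not ranked against each other.

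The 10 pathway genes took 0.0648% of all CDS reads in replicate 1, with a 95% Wilson interval from 0.0638% to 0.0659%, and 0.0386% in replicate 2, with one from 0.0363% to 0.0410%. The mean share was 0.0517% ± 0.0186 (SD, n = 2). Their reads ranged from 353 to 3988 in replicate 1 and from 22 to 274 in replicate 2, so every member was read in both. The median member had 36.4 and 20.7 CPM per kilobase in replicates 1 and 2, against 21.97 and 12.6 for the 5993 CDSs with a known length. Of the 10 members, 5 lay above the median CDS in replicate 1 and 7 in replicate 2.

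None of the 28-base stretches of any member occurs elsewhere in the R64 reference genome, on either strand. The members are single-exon genes that overlap no other annotated CDS. Reads of that length could therefore be assigned to each gene without a competing copy, which matters most for FUS3 and KSS1. Their proteins are 57.0% identical over 349 aligned residues, yet the longest run of bases shared by the coding sequences is 12. The stretch around the activation loop is shown because it holds the residues that STE7 phosphorylates in either kinase. The codons of the threonine, glutamate and tyrosine of the loop, residues 180 to 182 of FUS3 and 183 to 185 of KSS1, are in capitals. The windows lie at chrII:192958-193026 and chrVII:575914-575982 on the plus strand, and 39 of their 69 bases are identical.
FUS3: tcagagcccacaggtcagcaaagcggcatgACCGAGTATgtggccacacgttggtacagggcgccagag
KSS1: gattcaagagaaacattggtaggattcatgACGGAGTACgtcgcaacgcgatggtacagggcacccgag

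Per kilobase the G protein genes had the highest levels of the members, although FAR1 had more reads than STE4 and STE18, and STE18 was not apart from FAR1 in replicate 2. GPA1 (YHR005C, chromosome VIII, 113499 to 114917, minus strand), whose product holds the beta-gamma dimer inactive, collected 3988 and 274 reads. Its level was 119.9 CPM per kilobase (95% Poisson interval 116.2 to 123.7) and 70.6 (62.5 to 79.5), a mean of 95.3 ± 34.8 (SD, n = 2). STE18 (YJR086W, chromosome X, 586068 to 586400, plus strand), whose short product of 110 residues is anchored in the membrane by lipids, had 785 and 42 reads. Its level was 100.6 and 46.1 CPM per kilobase, a mean of 73.4 ± 38.5. STE4 (YOR212W, chromosome XV, 742910 to 744181, plus strand), the beta subunit that signals once released, had 2611 and 196 reads, or 87.6 and 56.4 CPM per kilobase, a mean of 71.97 ± 22.1.

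These 3 genes stood above at least 73.4% of CDSs with a known length in each library. Within a library, scaling cancels from the ratio of members. GPA1 was read 1.37-fold above STE4 per kilobase in replicate 1 (95% exact interval 1.30 to 1.44) and 1.25-fold in replicate 2 (1.04 to 1.51). It also exceeded STE18, by 1.19-fold (1.10 to 1.29) and 1.53-fold (1.10 to 2.17). The subunits of the dimer could not be ranked: STE4 had 0.871 times the level of STE18 in replicate 1 (0.804 to 0.944) and 1.22 times in replicate 2 (0.872 to 1.75). These intervals cover counting error only, since the reads carry no molecular identifiers.

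**Figure D1:**
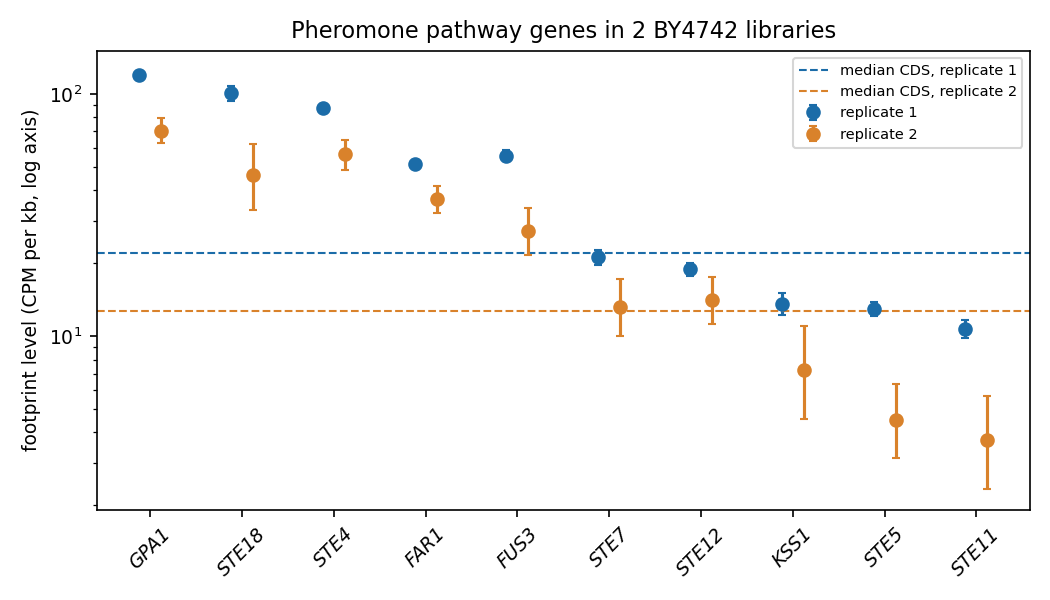
Footprint level (CPM per kilobase of coding sequence, log axis) of each member in both libraries, ordered by mean, with 95% Poisson intervals of counting error and dashed lines at the median CDS of each library. GPA1, STE18 and STE4 form the top, between 46.1 and 119.9, and STE5 and STE11 the bottom, between 3.74 and 12.98.

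Per kilobase the scaffold and the first kinase had the lowest levels of the members, although KSS1 had no more reads than either, and STE5 was not apart from KSS1 in either library. STE5 (YDR103W, chromosome IV, 658350 to 661103, plus strand) had 838 and 34 reads, or 12.98 and 4.52 CPM per kilobase, a mean of 8.75 ± 5.99 (SD, n = 2). STE11 (YLR362W, chromosome XII, 849866 to 852019, plus strand), the MAP kinase kinase kinase, had 540 and 22 reads, or 10.7 and 3.74 CPM per kilobase, a mean of 7.22 ± 4.92. Both lay below the median CDS in each library. STE5 exceeded STE11 by 1.21-fold in each, but the interval of replicate 2 (0.687 to 2.17) includes equal levels.

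STE7 (YDL159W, chromosome IV, 172481 to 174028, plus strand), the MAP kinase kinase, had 767 and 56 reads, or 21.1 and 13.2 CPM per kilobase, with a mean of 17.2 ± 5.59, close to the median CDS. STE11 was read at 0.506 times the level of STE7 in replicate 1 (95% exact interval 0.452 to 0.566) and at 0.282 times in replicate 2 (0.164 to 0.470). STE7 in turn had 0.380 times (0.347 to 0.415) and 0.486 times (0.339 to 0.694) the level of FUS3. Level was thus higher at each step from STE11 to STE7 to FUS3 in both libraries, with intervals that exclude equal levels.

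FUS3 (YBL016W, chromosome II, 192451 to 193512, plus strand) had 1385 and 79 reads, or 55.6 and 27.2 CPM per kilobase, a mean of 41.4 ± 20.1. KSS1 (YGR040W, chromosome VII, 575398 to 576504, plus strand) had 353 and 22 reads, or 13.6 and 7.27 CPM per kilobase, a mean of 10.4 ± 4.48. FUS3, the MAP kinase of mating, was therefore read 4.09-fold above KSS1 in replicate 1 (3.64 to 4.61) and 3.74-fold in replicate 2 (2.31 to 6.31), a mean of 3.92 ± 0.245 (SD, n = 2). KSS1 lay below its own activator STE7, which exceeded it by 1.55-fold (1.37 to 1.77) and 1.82-fold (1.09 to 3.13).

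Of the nuclear targets, FAR1 was read more than STE12. FAR1 (YJL157C, chromosome X, 123836 to 126328, minus strand) had 3014 and 250 reads, or 51.6 and 36.7 CPM per kilobase, and STE12 (YHR084W, chromosome VIII, 274174 to 276240, plus strand) had 914 and 80, or 18.9 and 14.2. The means were 44.1 ± 10.5 and 16.5 ± 3.33. STE12 had 0.366 times the level of FAR1 in replicate 1 (0.339 to 0.394) and 0.386 times in replicate 2 (0.296 to 0.498). FAR1 stood near FUS3, with a ratio of 0.927 (0.870 to 0.989) in replicate 1 and 1.35 (1.04 to 1.76) in replicate 2, so the order of these genes turned between the libraries.

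By mean level the order was GPA1, STE18, STE4, FAR1, FUS3, STE7, STE12, KSS1, STE5 and STE11. Of the 9 neighbouring pairs, 4 differed in the same direction with intervals that exclude equal levels in both libraries, namely GPA1 above STE18, STE4 above FAR1, FUS3 above STE7 and STE12 above KSS1. The other neighbours, STE18 and STE4, FAR1 and FUS3, STE7 and STE12, KSS1 and STE5, and STE5 and STE11, did not. Over all 45 pairs, 39 met this criterion. From the lowest to the highest member the level spanned 11.2-fold in replicate 1 and 18.9-fold in replicate 2. Shorter CDSs had higher levels per kilobase across 5124 tested CDSs (Spearman's rho = -0.43 and -0.39, a description within each library), and STE5 and STE11 are among the longer members while STE18 is the shortest. Other members went against this: FAR1, at 2493 nt, is longer than STE11, at 2154 nt, yet had rank 4 by mean level. KSS1, at 1107 nt, is among the shorter members yet had rank 8. The part of length in this order was not tested.

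All 10 members were lower in replicate 2 by the exact binomial test against the CDS totals, with Benjamini-Hochberg adjustment over all 5131 CDSs. Of all tested CDSs, 63.9% were called lower as well. The fold of replicate 2 over replicate 1 ranged from 0.348 for STE5 to 0.750 for STE12, with a median of 0.562 for the members and 0.638 for all tested CDSs. The test compares these libraries beyond counting error and says nothing of a condition. Replicate 2 was the shallower library, and with 22 reads the interval of KSS1 or STE11 there is wide.

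Relative to the bulk of CDSs, 3 members remained lower in replicate 2. When the expected split was set at the median ratio of tested CDSs, the exact binomial test called STE5 (adjusted p = 0.000668), STE11 (0.00998) and FUS3 (0.0472) lower and no member higher. Of all CDSs 17.2% were called lower and 26.5% higher in this way. STE5 had 0.348-fold in CPM (95% exact interval 0.239 to 0.490) and STE11 had 0.349-fold (0.217 to 0.534), and only 10.2% of tested CDSs had a lower fold than either. With edgeR's TMM scaling the same test also called STE18 (adjusted p = 0.0420), against 20.1% of CDSs lower and 24.3% higher. With DESeq2's size factors it called STE5, STE11 and FUS3, against 18.4% lower and 25.7% higher. GPA1, STE4, STE7 and KSS1 were called lower only with CDS totals. STE12 and FAR1 had folds below 1 with CDS totals and above 1 with the other scalings, as did STE4 with the median ratio, without a call there. The ratio also varied with level over all CDSs. With CDSs split into 5 classes of equal size by CPM, the median log2 ratio (pseudocount 1 CPM) of the 5 members between 22.7 and 45.4 CPM was -1.01, against -0.73 for all CDSs of that class. For the 2 members of the class below it was -1.12 against -0.80. For the 2 members of the class above it was -0.56 against -0.58, and GPA1, in the top class, had -0.76 against -0.22.

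**Figure D2:**
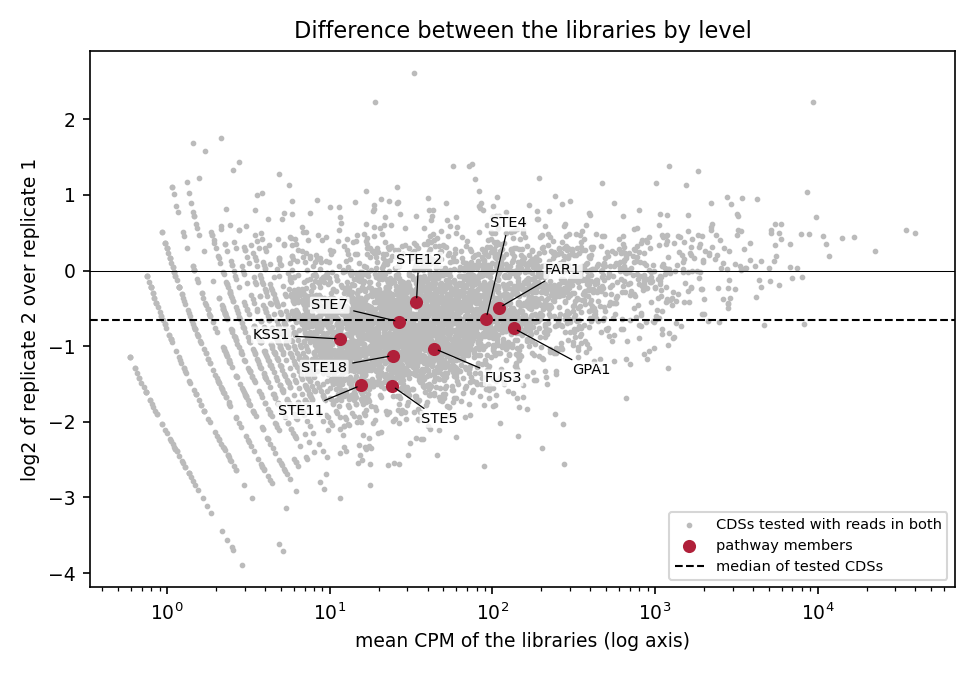
Log2 ratio of CPM in replicate 2 over replicate 1 against mean CPM (log axis) for tested CDSs with reads in both libraries (grey) and the 10 members (red), with a dashed line at the median fold of 0.638. All members lie below 0, and STE5 and STE11, at 0.348-fold and 0.349-fold, lie furthest below the dashed line.

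The genes around the members in the pathway were taken from lists of known components. The receptor was read far less than its G protein. STE3, the receptor of alpha cells for the a pheromone, had 247 and 17 reads, or 7.46 and 4.40 CPM per kilobase. GPA1 stood 16.1-fold (14.1 to 18.4) above it in replicate 1 and 16.05-fold (9.84 to 27.95) in replicate 2. STE2, the receptor of the opposite mating type, had 1 read in each library. SAG1, the agglutinin of alpha cells, had 22.9 and 17.4 CPM per kilobase.

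All 6 upstream adaptors and polarity factors were read, with medians of 32.4 and 18.4 CPM per kilobase. CDC42, the GTPase of cell polarity, had 164.7 and 170.8, above every member. Its effector kinase STE20, which activates STE11, had 17.8 and 12.6, and STE50, the adaptor of STE11, had 49.9 and 27.4. STE50 exceeded STE11 by 4.67-fold (4.21 to 5.17) and 7.34-fold (4.52 to 12.4). BEM1, a polarity scaffold, had 38.9 and 21.2, AKR1, a palmitoyl transferase, had 25.9 and 15.6, and CDC24, the exchange factor of CDC42, had 19.4 and 15.5. Between the libraries 5 of the 6 were called lower in replicate 2 with CDS totals, where 63.9% of all CDSs were. The exact binomial test against those totals did not call CDC42 (adjusted p = 0.606). Its fold was 1.04, against a median of 0.638 for tested CDSs.

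The 7 negative regulators spanned a wide range, and their medians, 19.1 and 8.96 CPM per kilobase, lay below those of the members. DIG1, an inhibitor of STE12, led with 172.9 and 108.8, and its paralog DIG2 had 19.1 and 12.04. DIG1 was read 9.17-fold above STE12 in replicate 1 (8.54 to 9.84) and 7.68-fold in replicate 2 (6.03 to 9.89), whereas DIG2 could not be separated from STE12, at 1.01 (0.903 to 1.14) and 0.851 (0.546 to 1.30). SST2, which speeds GTP hydrolysis by GPA1, had 47.4 and 30.9, and GPA1 stood 2.53-fold (2.40 to 2.66) and 2.29-fold (1.89 to 2.78) above it. Of the phosphatase genes, MSG5 had 20.5 and 8.96, near the medians of the list, PTP3 had 6.90 and 4.07, and PTP2 had 4.204 and 4.87. RGS2, the counterpart of SST2 in glucose signalling, had 6.47 and 3.93. With CDS totals 5 of the 7 were called lower in replicate 2, near the 63.9% of all CDSs. The pairs that set a member against a gene outside the members were chosen after the values were seen, and so was the pair of STE7 and KSS1.

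The partner transcription factors were all above the median CDS in both libraries. MCM1, which binds with STE12 at many mating genes, had 180.6 and 120.2 CPM per kilobase, 9.57-fold (8.90 to 10.3) and 8.49-fold (6.60 to 11.03) above STE12. TEC1, the partner of STE12 in filamentous growth, had 44.2 and 16.02, and KAR4, a partner for late mating genes, had 34.9 and 19.2. All 3 were called lower in replicate 2 with CDS totals, as were 63.9% of all CDSs.

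Most of the genes listed here as induced by pheromone were hardly read. The 15 genes of that list had medians of 1.06 and 0.428 CPM per kilobase, and 1 of them, KAR4, exceeded the median CDS. CIK1, a partner of the nuclear fusion motor, had 20.7 and 9.43, PRM5 had 8.92 and 1.53, and 6 of the 15 had under 10 reads on average. PRM6 was listed at 0 in both libraries, and FUS1, the classical reporter of the pathway, had 47 and 2 reads, or 1.30 and 0.475 CPM per kilobase. In the same libraries each member of the signalling pathway had at least 353 and 22 reads. The members include genes described as targets of STE12, so this does not set induced genes against genes that are not induced. Of the 9 induced genes tested, 4 were called lower in replicate 2 and none higher, against 63.9% and 7.25% of all CDSs.

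Among the 10 enzymes that mature the pheromones, the medians were 10.2 and 6.47 CPM per kilobase. RAM2, a farnesyl transferase subunit, led with 93.9 and 45.8, followed by the protease gene STE23 with 33.3 and 29.8 and STE24 with 32.0 and 20.7. KEX2, which cleaves the alpha pheromone precursor, had 5.13 and 2.39. Of the 10, 7 were called lower in replicate 2, near the 63.9% of all CDSs. Genes listed as haploid-specific, which are repressed in diploids, were read in this haploid strain too. Their levels were 63.9 and 35.9 for the endonuclease gene HO, 59.3 and 29.6 for RME1, 19.8 and 17.3 for RDH54, 8.998 and 13.9 for NEJ1, and 6.91 and 2.82 for AXL1. AXL1 is also counted among the maturation enzymes. NEJ1 alone of the listed genes was called higher in replicate 2 with CDS totals, at 1.54-fold (exact binomial test, adjusted p = 0.0269). Calls of listed genes outside the members are given with CDS totals only, so this does not single out NEJ1 under other scalings. Of the 5 haploid-specific genes 3 were called lower. Across all CDSs 63.9% were called lower and 7.25% higher.

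**Figure D3:**
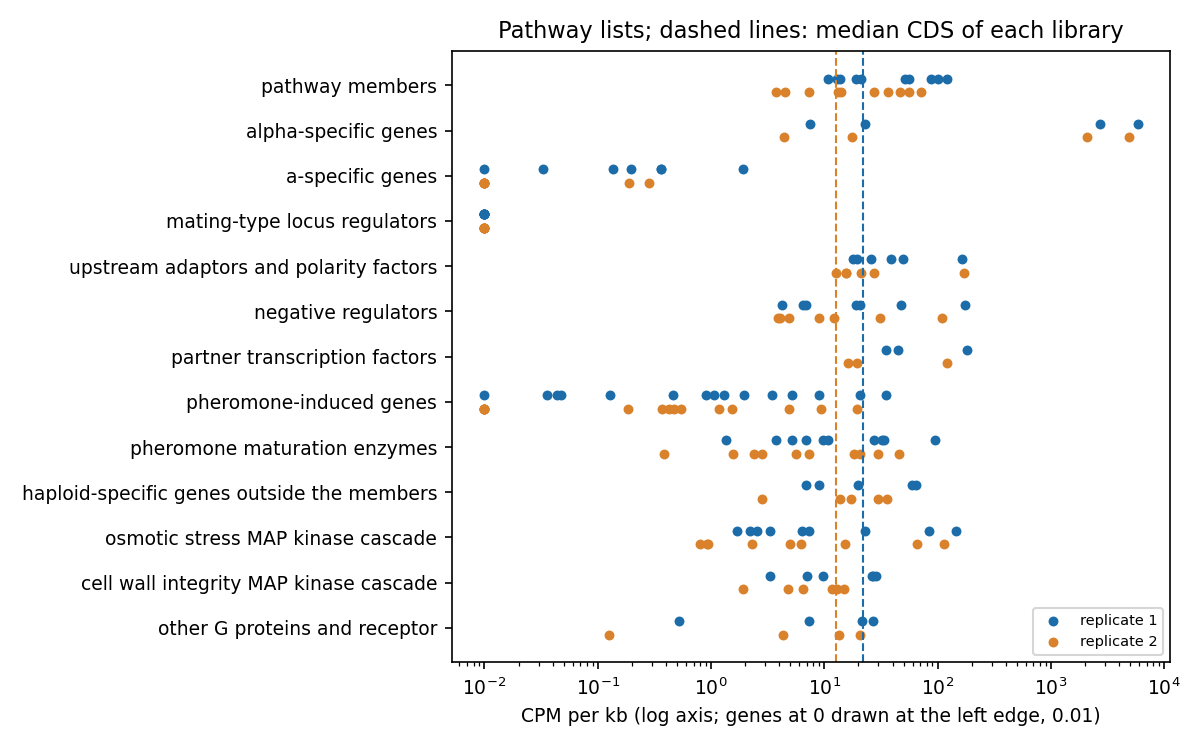
Footprint level (CPM per kilobase, log axis) of each gene of the members and of 12 pathway lists in replicates 1 and 2, with genes at 0 drawn at the left edge and dashed lines at the median CDS of each library. The alpha pheromone genes lie at the far right, up to 5824, and pheromone-induced genes mostly lie left of the dashed lines, with medians of 1.06 and 0.428.

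The mating cascade was also set beside the other MAP kinase cascades of growing yeast. In the osmotic stress cascade the kinases SSK2, PBS2 and HOG1 had 7.31, 22.8 and 144.8 CPM per kilobase in replicate 1 and 5.02, 15.1 and 113.3 in replicate 2. SSK22, the paralog of SSK2, had 1.69 and 0.915. In the cell wall integrity cascade BCK1 had 3.29 and 1.90, its targets MKK1 and MKK2 had 9.67 and 7.07 in replicate 1 and 6.47 and 4.81 in replicate 2, and SLT2 had 28.4 and 12.8. In each of these cascades level was thus higher at each tier down to the MAP kinase, as from STE11 to FUS3, while KSS1 lay below STE7. Coding length also fell along each cascade, from 2154 to 1548 to 1062 nt for STE11, STE7 and FUS3. Its part in this order was not tested.

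Between cascades, HOG1 was the most highly read MAP kinase. It exceeded FUS3 by 2.602-fold in replicate 1 (2.45 to 2.77) and 4.16-fold in replicate 2 (3.26 to 5.37), and FUS3 exceeded SLT2 by 1.96-fold (1.80 to 2.13) and 2.12-fold (1.47 to 3.08). STE7 and PBS2 were not separated, with PBS2 at 1.08 times (0.984 to 1.19) and 1.14 times (0.805 to 1.63) the level of STE7. STE7 exceeded MKK1 by 2.19-fold (1.92 to 2.49) and 2.05-fold (1.27 to 3.37). STE11 exceeded BCK1 by 3.25-fold (2.84 to 3.74) and 1.97-fold (1.05 to 3.70), but stood above SSK2 in replicate 1 only, at 1.46 (1.31 to 1.63) and 0.745 (0.437 to 1.22). Of the other components of these lists, the phosphotransfer protein gene YPD1 had 83.4 and 66.1, and PKC1, the first kinase of the cell wall pathway, RLM1, its transcription factor, and GPA2, the G protein alpha subunit of glucose sensing, had 26.8, 26.3 and 26.9 in replicate 1 and 14.9, 11.7 and 20.6 in replicate 2. Among the glucose-sensing genes, GPB1 had 21.7 and 13.6, GPB2 7.31 and 4.29, and the receptor gene GPR1 0.517 and 0.127. GPA1 exceeded GPA2 by 4.46-fold (4.14 to 4.81) and 3.43-fold (2.65 to 4.48). With CDS totals 6 of the 9 osmotic stress genes, 4 of the 6 cell wall integrity genes and 3 of the 4 glucose-sensing genes were called lower in replicate 2, and none higher, where 63.9% of all CDSs were lower.

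**Figure D4:**
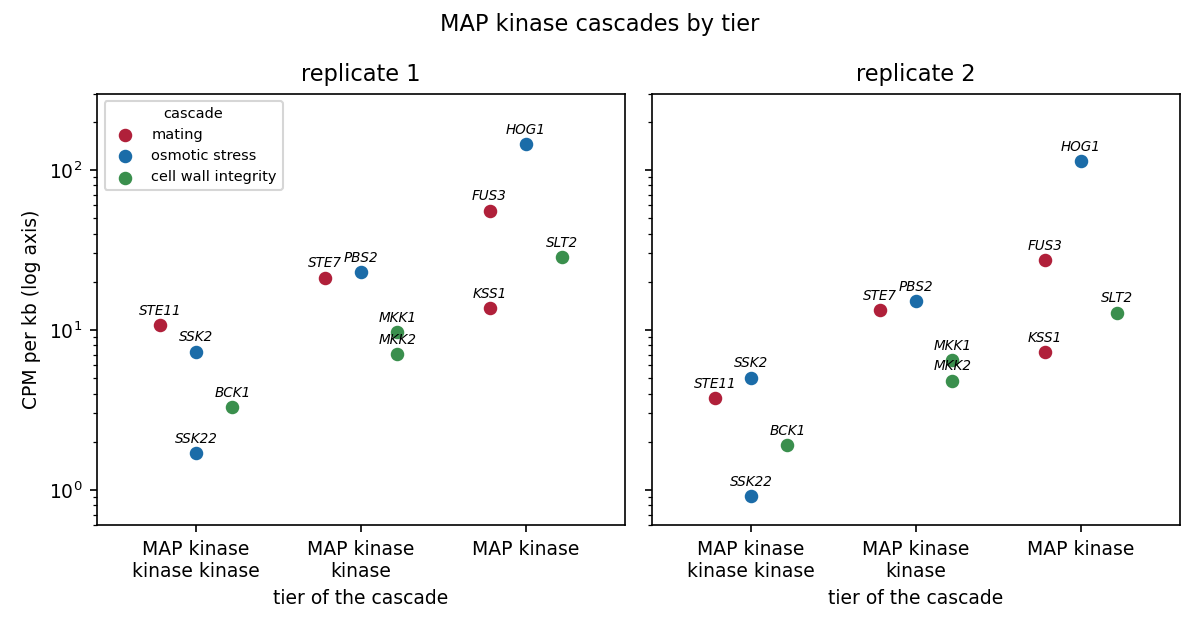
Footprint level (CPM per kilobase, log axis) of the kinases of the mating, osmotic stress and cell wall integrity cascades by tier, in each library. Level is higher at each tier down to FUS3, HOG1 and SLT2 (55.6, 144.8 and 28.4 in replicate 1), while KSS1, at 13.6, lies below STE7, at 21.1.

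The bases around the start codon are shown because they bear on where ribosomes begin. Each line gives 15 bases before the start codon, the ATG and 6 bases after it, on the coding strand, with the ATG and the base at position -3 (counted back from the A of the ATG) in capitals. In yeast an A at -3 is the most common base, found in 61.0% of 5980 genes, and 80.2% have A or G.
GPA1: ttaaggtaggaaAtaATGgggtgt
STE4: caggtacacattAcgATGgcagca
STE18: tcaataattctaAgaATGacatca
STE5: ggaaacaactttTaaATGatggaa
STE11: gtagacgaaataTacATGgaacag
STE7: tattggttgttgGtcATGtttcaa
FUS3: agaaaggaaaatAatATGccaaag
KSS1: ttcaacaattcaAagATGgctaga
STE12: tcttgttcaccaAggATGaaagtc
FAR1: gaaggcaatctaTtaATGaagaca
Of the members, 6 have A at -3 and STE7 has G. STE5, STE11 and FAR1 have T. STE5 and STE11 are the members with the lowest levels, whereas FAR1 is among the 5 highest. FUS3 has 10 A among the 15 bases, STE7 has 1, and the median gene has 6.

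Codon use did not follow level among the members. The codon index used here rises to 1 for a gene made of the codons that 130 ribosomal protein genes use most, and it had a median of 0.197 over 5980 CDSs and 0.791 over those reference genes. The members ranged from 0.148 for FUS3 to 0.207 for GPA1, with a median of 0.186, and 3 of 10 lay above the median CDS. CDSs within the level range of the members had a median of 0.194. Across 5121 CDSs the index rose with level (Spearman's rho = 0.467 and 0.502 in replicates 1 and 2), and across the 10 members rho was -0.20 and -0.03, given as a description. FUS3 combined a low index, at percentile 10.3 of CDSs, with the highest share of G or C at the third codon position, 52.6%, at percentile 95.5. The other members had 29.4% to 40.1%, and the median CDS 37.6%.

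**Figure D5:**
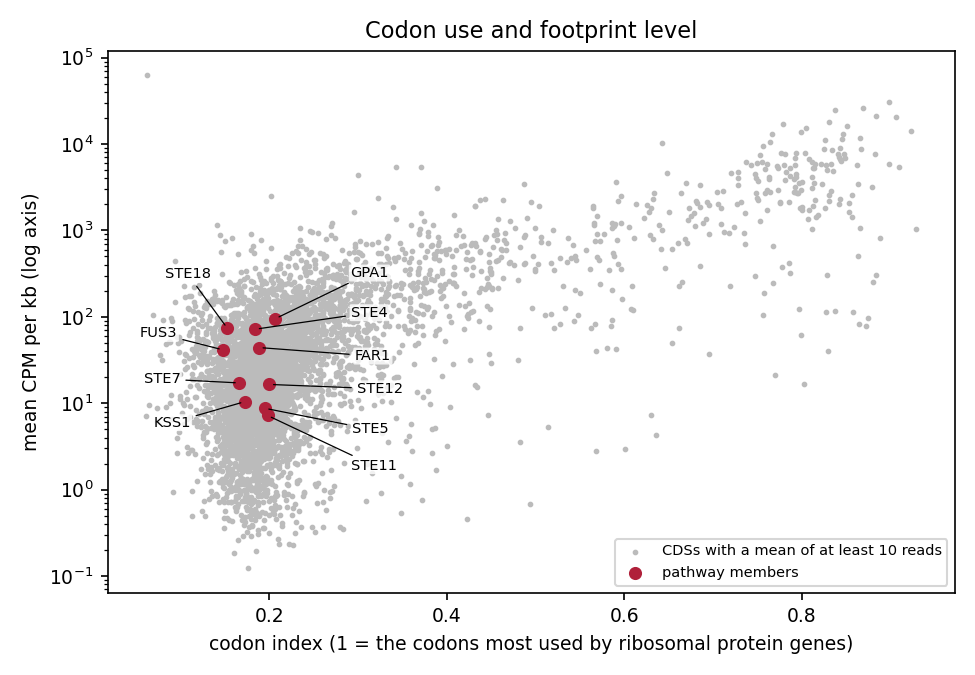
Mean footprint level (CPM per kilobase, log axis) against codon index for tested CDSs (grey) and the members (red). The members lie between 0.148 and 0.207 on the index, left of the arm of highly read genes that reaches the ribosomal protein genes, whose median is 0.791.

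STE12 is known to bind the pheromone response element TGAAACA, and the members include genes described as its targets. The element was searched on both strands in 500 bases before the start codon. It was found before 720 of 5980 genes and before 5 of the 10 members, with 9 matches in all. The count depended on the search: with 300 bases 2 members had the element, against 7.19% of genes, and with its first 6 letters, TGAAAC, in 500 bases 7 had a match, against 30.6%. The matches are shown on the coding strand of the gene with 9 bases on each side and the element in capitals, where TGTTTCA is its reverse complement.
STE12, 467 bases before the start codon, chrVIII:273691-273715: tgcataattTGAAACAcagcatttc
STE12, 428 bases before, chrVIII:273730-273754: gtttcaaaaTGAAACAaacgccgtt
STE12, 386 bases before, chrVIII:273772-273796: tagaaaaagTGAAACAgataaaaat
FUS3, 255 bases before, chrII:192180-192204: ttttagatcTGTTTCAccctggaac
FUS3, 149 bases before, chrII:192286-192310: acagggcatTGAAACAattgcagaa
STE4, 480 bases before, chrXV:742414-742438: gttgaaaaaTGTTTCAggaagagat
STE4, 311 bases before, chrXV:742583-742607: acacttgccTGTTTCAtattagttg
STE18, 110 bases before, chrX:585942-585966: gttgattttTGTTTCAggctctaaa
STE7, 325 bases before, chrIV:172140-172164: gaatgtggaTGAAACAaaactgaat
The 3 matches of STE12 share 1 orientation. No match was found before GPA1, STE5, STE11, KSS1 or FAR1 in this window, which says nothing of binding there. Members with a match ranged from 100.6 CPM per kilobase for STE18 to 18.9 for STE12 in replicate 1. Those without a match included the 3 members with the lowest levels, KSS1, STE5 and STE11. They also included the member with the highest level, GPA1 at 119.9, and FAR1 at 51.6. Among the other lists the element was found before all 7 genes specific to the opposite mating type, 12 of 15 pheromone-induced genes, 4 of 6 mating-type locus genes and 2 of 3 partner transcription factors. It was found before 2 of 4 alpha-specific genes, 5 of 10 maturation enzymes, 3 of 7 negative regulators and 2 of 5 haploid-specific genes. The lowest counts were 2 of 9 osmotic stress genes, 1 of 6 upstream adaptors, 0 of 6 cell wall integrity genes and 0 of 4 glucose-sensing genes. The mating-type locus genes lie in divergent pairs whose search windows overlap, so 1 match may count for more than 1 of them.

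The IGORFs next to the members held almost no reads. On the strand of the member and within 200 nt of it lay 55 IGORFs, with 2 reads (0.0853 CPM) in replicate 1 and 9 (3.29 CPM) in replicate 2, and none had more than 2 reads in a library. If the IGORF tables are swapped, the difference per CDS read falls from 38.6-fold to 1.91-fold, so no difference between the libraries is read from these counts. Upstream lay 26, with 1 and 6 reads, downstream 27, with 1 and 1, and the IGORFs that overlap the end of FUS3 and the start of FAR1 had 0 and 2. On the opposite strand 54 IGORFs had 0 reads in both libraries, which allows up to 3 reads in each. Upstream reads were found at STE12 in replicate 1 and at STE4, STE18 and STE12 in replicate 2, or 1 and 3 of 10 members. Of all 5993 genes, 10.7% and 19.3% had such a read, so the members did not stand out at this depth. The 3 IGORFs read upstream of STE4, with 4 reads in replicate 2, overlap each other, and 1 read may count for more than 1 of them.

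The IGORF upstream of STE12 was the only one near a member with a read in both libraries, 1 in each. It lies at chrVIII:274029-274154 on the plus strand, ends 19 nt before the start codon and holds no in-frame ATG. Against the 914 and 80 reads of STE12 itself, these reads were too few to compare.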

How the data were processed

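Ribosome-protected fragments of 2 replicate libraries of 1 group had been sequenced. The authors deposited raw read counts per CDS and per IGORF, per the file headers. A TruSeq Small RNA kit was used, per the labels' protocols. Cutadapt, Bowtie, SAMtools and the build sacCer3 are named, per the submitters' processing notes. Not given in the sources used here were versions, annotation, counting, read lengths kept and the handling of reads that match several places. Such steps decide which reads reach a gene.

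Positions, lengths and sequences came from RefSeq R64, in which 5993 of 6666 CDS identifiers were found. All 78989 IGORF identifiers gave frames bounded by stop codons in that sequence, so their coordinates were read on it. CPM was computed over CDS totals, and level as CPM per kilobase of coding length. A two-sided exact binomial test (Benjamini-Hochberg, threshold 0.05) set the libraries' counts against each other for CDSs averaging 10 or more reads, and was tested on simulated data. It recovered 57.3% of changes of 1.5-fold and 82.5% of changes of 2-fold there. Apart from these changes the simulated libraries differed by counting error only, so the simulation does not cover other spread between the real libraries. Ratios have exact conditional binomial intervals at 95%. Proteins were aligned globally with BLOSUM62. Log2 ratios in the level classes used a pseudocount of 1 CPM.

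The members, lists and tests were chosen with earlier results of these data known. All members were named, as were all genes of lists of 7 or fewer and the 3 highest of longer lists. SSK2 and SSK22 were named as the MAP kinase kinase kinases listed here for the osmotic stress cascade, a list that need not be complete. FUS1, PRM6 and KEX2 were named after their values were seen. IGORFs were to be named from 5 reads, and none reached this, so the one described was chosen after its values were seen. Alternatives changed the scaling, the filter, the length correction, the distance, the motif and the libraries used. Tools were Python 3.11.15, numpy 2.4.6, scipy 1.17.1, pandas 2.3.3, Biopython 1.88, R 4.3.3, edgeR 4.0.16 and DESeq2 1.42.0.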

Additional observations from a re-analysis of the deposited data

How the results depend on the processing

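The number of members called lower in replicate 2 rested on the scaling: it was 10 with CDS totals, 4 with TMM, 3 with DESeq2's size factors and 3 with the split at the median ratio, and stayed at 10 with other filters. Of all tested CDSs, 63.9%, 20.1%, 18.4% and 17.2% were called lower with these scalings in the same order. No member was called higher under any of these settings, against 7.25%, 24.3%, 25.7% and 26.5% of tested CDSs with the scalings in that order. The fold of STE12 turned to 1.13, 1.16 and 1.18 with TMM, size factors and the median ratio, that of FAR1 to 1.08, 1.10 and 1.11, and that of STE4 to 1.01 with the median ratio. Levels in single libraries differed by up to 2.87-fold, for STE5. The median level of 28.5 became 71.97 over the 3 members with at least 100 reads in both libraries, a set that favours highly read genes. Without correction for length 8 members rather than 5 lay above the median CDS, and the ratios became 1.46 for GPA1 to STE4, 4.00 for STE4 to STE18, 1.55 for STE5 to STE11, 0.631 for STE7 to FUS3 and 0.312 for STE12 to FAR1. Reads in IGORFs near members were 2 to 9 in single libraries, and their 38.6-fold difference per CDS read became 1.91 with the IGORF tables exchanged. The codon index had a median of 0.267 with glycolysis genes as reference. With 300 bases 2 members rather than 5 had the response element. No paired analysis was possible because the libraries form 1 group. Depth limits KSS1 and STE11 most, with 22 reads each in replicate 2.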
